A study of Mus musculus with 6 samples.

Results

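The 32 genes described here are markers of astrocytes, the glial cells that surround synapses and blood vessels. They were chosen by symbol and matched to the platform annotation, and each gene was represented by its probe set of highest mean level. All 32 were found among the 19938 genes tested. Expression was measured on 1-colour Affymetrix whole-transcript arrays in the granule cell layer of the dentate gyrus (DG), cut out by laser capture microdissection from sections stained with cresyl violet. The mutant group (3 arrays) came from Bcl11b flox/flox mice with tetO-Cre and CaMKIIα-tTA, and the control group (3 arrays) from control mice of this tet-off line, whose alleles no source used here states. Mice received doxycycline throughout embryogenesis until 2 months of age and were analyzed 4 weeks after its removal. The CaMKIIα promoter that drives the system is known for its activity in forebrain neurons. Whether every array stands for a separate animal is not stated, and p-values therefore measure only the spread between these samples, which may be technical.

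Astrocytes take up glutamate and potassium that neurons release, turn glutamate into glutamine, and couple to each other through gap junctions into a network. Their endfeet on blood vessels are rich in water channels. In response to injury or loss of neurons astrocytes become reactive, for which a rise of the intermediate filament protein Gfap is the classic sign. In the DG, Gfap is also made by the radial glia-like stem cells that line the inner edge of the granule cell layer.

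The deposited values are log2 expression values made by the authors with RMA, which gives all arrays nearly the same distribution, and the array medians over all probe sets lay between 6.29 and 6.36. Bcl11b had log2 levels of 9.03, 8.68 and 8.82 in mutants 1, 2 and 3, against 10.56, 10.40 and 10.30 in controls 1, 2 and 3. The position of its probes relative to the floxed sequence was not known here. Prox1, which defines granule cells, averaged 11.60 ± 0.044 in mutants and 11.65 ± 0.19 in controls (SD, n = 3 each). Other defining markers of granule cells were not level between the groups (limma, adjusted p under 0.05). C1ql2 (log2 difference -3.29), Trpc6 (-1.64), Calb1 (-0.97) and Dsp (-0.81) were lower in mutants, and Tdo2 (1.13) was higher. The myelin gene Mbp averaged 9.90 ± 0.076 in mutants and 9.97 ± 0.042 in controls (SD, n = 3 each), and the microglial gene Cx3cr1 7.77 ± 0.11 in mutants and 7.89 ± 0.19 in controls (SD, n = 3 each). In limma (adjusted p under 0.05), 0 of 19 microglial genes were higher and 2 lower, Cd68 (log2 difference -1.04) and Tmem119 (-0.32). Of 15 oligodendrocyte genes 0 were higher and 2 lower, Ermn (-1.71) and Ugt8a (-0.34). These are 10.5% and 13.3% lower and 0% higher, beside 5.93% and 9.23% of all genes. The means of Mbp and Cx3cr1, genes of cells other than granule cells, lay above every array median. The means of the 32 astrocyte genes over 6 arrays ran from 6.67 for Plcd4 to 13.14 for Sparcl1. The lowest single value was 6.42, above every array median over all probe sets. Over the genes tested alone, the array medians were higher, between 7.02 and 7.08. Of the 32 means, 29 reached the limit of 7.06 used in the filter on dim genes. Those of Plcd4, Aldh1l1 and Gjb6 lay below it. The arrays carry no measure of detection, and in bulk samples fewer astrocytes and less RNA per astrocyte cannot be told apart.

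Of the 32 astrocyte genes, 3 rose and 0 fell in mutants, while 29 did not pass (limma, Benjamini-Hochberg adjustment over 19938 genes, threshold 0.05). The 3 were Gfap, Hepacam and Ntsr2. Among all genes tested 9.23% were higher and 5.93% lower, 15.2% together, and the 3 of 32 astrocyte genes (9.38%) lay close to the share of higher genes. With the filter on dim genes, 3 of 29 astrocyte genes (10.3%) passed, all higher. Of the 9969 genes left by that filter 27.6% passed, 1663 higher and 1086 lower. The 1840 higher and 1183 lower genes became 1423 higher and 1800 lower when arrays were centred on their medians. With the methods' test after adjustment 0 of the 32 passed in either direction, beside 5.72% of all genes. At an unadjusted p under 0.05 in limma, 8 of the 32 passed (27.2% of all genes), 7 of them higher (15.6% of all genes) and 1, Sparcl1, lower (11.6%). The difference was positive for 22 of the 32, and for 49% of all genes. The median log2 difference, mutant minus control, was 0.087 over the 32 genes and -0.0027 over all genes tested. Without control 1 the median of the 32 was -0.0027, and without control 3 it was 0.19. With arrays centred on their medians it was 0.038, beside -0.051 over all genes. With renewed quantile normalization it was 0.059, beside -0.0063. With 3 arrays in each group, the smallest p of an exact two-sided permutation test is 0.1, and precision is limited by this number of arrays.

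**Figure D1:**
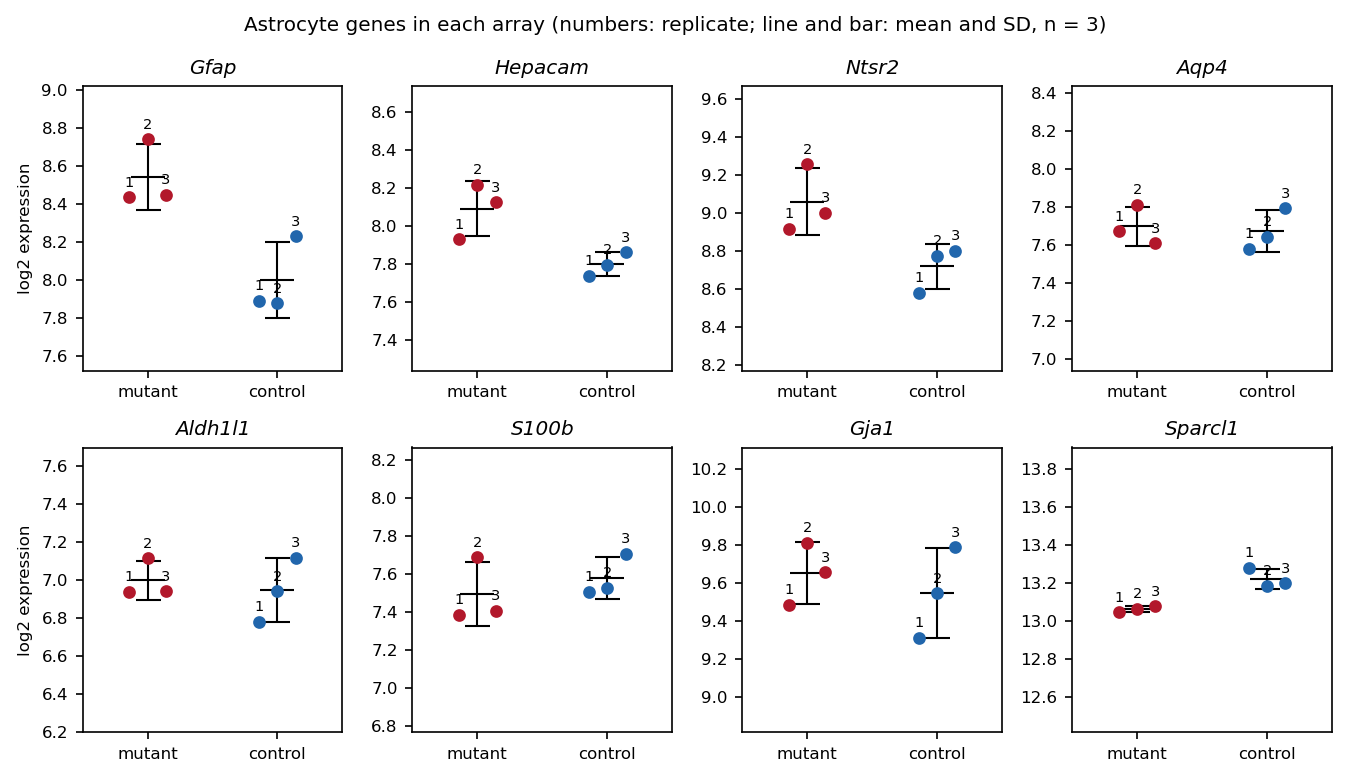
Log2 expression on the vertical axis of 8 astrocyte genes in each array, with mutants on the left and controls on the right of each panel. Dots are arrays with their replicate number, lines are means with SD as bars (3 arrays per group), and every panel spans the same log2 range. The groups do not overlap for Gfap, Hepacam, Ntsr2 and Sparcl1, whereas for Aqp4, Aldh1l1, S100b and Gja1 they do.

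Gfap, the intermediate filament protein of astrocytes, had the largest difference of the 32. Its log2 levels were 8.44, 8.74 and 8.45 in mutants 1, 2 and 3, against 7.89, 7.88 and 8.23 in controls 1, 2 and 3. Every mutant array lay above every control array, although mutant 1 and control 3 were only a little apart. Gfap rose, with a log2 difference of 0.54 (standard error 0.11, 95% interval 0.28 to 0.80, adjusted p = 0.0130 from limma), a fold of 1.46. It did not pass without control 2 (0.48, adjusted p = 0.0605 from limma), nor by the methods' test (Benjamini-Hochberg adjusted p = 0.147). Vim, the other filament protein of the 32, had log2 levels between 8.23 and 8.34 in mutants and between 7.78 and 8.31 in controls. Its log2 difference of 0.19 did not pass (95% interval -0.081 to 0.47, adjusted p = 0.360 from limma), and its control 1 lay well below the other 5 arrays.

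Hepacam, an adhesion protein that brings the membrane protein Mlc1 and the chloride channel ClC-2 to the contacts between astrocytes, also rose. Its log2 levels were 7.93, 8.22 and 8.12 in mutants 1, 2 and 3, against 7.74, 7.80 and 7.86 in controls 1, 2 and 3. The groups did not overlap, with the smallest gap between mutant 1 and control 3. The log2 difference was 0.29 (standard error 0.079, adjusted p = 0.0378 from limma), a fold of 1.22. Ntsr2, a neurotensin receptor found mainly on astrocytes, had 8.92, 9.26 and 9.001 in mutants 1, 2 and 3, against 8.58, 8.77 and 8.80 in controls 1, 2 and 3. Here too the groups were apart, and mutant 2 was the highest. The log2 difference was 0.34 (standard error 0.097, adjusted p = 0.0467 from limma), a fold of 1.27. Hepacam and Ntsr2 did not pass when the arrays were centred on their medians (adjusted p = 0.0673 and 0.0753 from limma). With renewed quantile normalization their adjusted p was 0.0873 and 0.128, and with the methods' test after adjustment 0.178 and 0.222. Both also failed to pass without control 1 (0.0536 and 0.0692), without control 2 (0.113 and 0.0988), without mutant 2 (0.133 and 0.133) and without mutant 3 (0.131 and 0.0993), and Ntsr2 without control 3 (0.0549).

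The promoters of these 3 genes are shown because they are the astrocyte genes that passed the test. Each window holds the 250 bases before the transcription start in RefSeq (GRCm38.p6), on chr11:102897201-102897450 (minus strand) for Gfap, chr9:37367356-37367605 (plus strand) for Hepacam and chr12:16653220-16653469 (plus strand) for Ntsr2. Capitals mark matches on either strand to TGGGC, named as a putative Bcl11b binding site, and to TTGGC, a core of the sites of nuclear factor I, which acts on astrocyte genes. No capital stretch belongs to both.
Gfap: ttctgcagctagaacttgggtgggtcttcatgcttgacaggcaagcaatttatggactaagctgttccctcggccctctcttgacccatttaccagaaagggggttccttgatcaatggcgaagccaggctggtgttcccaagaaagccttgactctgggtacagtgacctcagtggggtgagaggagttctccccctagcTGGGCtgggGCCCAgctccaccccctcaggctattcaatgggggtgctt
Hepacam: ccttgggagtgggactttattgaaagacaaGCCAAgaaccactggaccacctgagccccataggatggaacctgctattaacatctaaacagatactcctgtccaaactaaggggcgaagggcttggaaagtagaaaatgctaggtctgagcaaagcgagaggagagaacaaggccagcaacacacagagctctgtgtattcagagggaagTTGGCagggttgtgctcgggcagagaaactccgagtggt
Ntsr2: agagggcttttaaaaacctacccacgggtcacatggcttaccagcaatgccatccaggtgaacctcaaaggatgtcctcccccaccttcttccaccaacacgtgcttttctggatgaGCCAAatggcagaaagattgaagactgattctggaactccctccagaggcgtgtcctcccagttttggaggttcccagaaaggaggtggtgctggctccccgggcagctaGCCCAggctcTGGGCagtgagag
TGGGC occurred at 2 places in the Gfap window, 0 in that of Hepacam and 2 in that of Ntsr2. TTGGC occurred at 0, 2 and 1 places. TTCNNNGAA, the palindrome that STAT factors bind, occurred at 1 place, 62 to 54 bases before the start of Ntsr2. Of all 32851 promoters of the table, 50.7% hold TGGGC, 41.5% TTGGC and 7.02% TTCNNNGAA in a window of the same length. Of the 37 promoters that 29 of the astrocyte genes have there, 54.1%, 48.6% and 13.5% hold them. Aqp4, Clu and Sparcl1 are the other 3 genes. A match is a description of letters and not a site.

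Among genes of channels and junctions, 1 of 6 rose, Hepacam, and 5 did not pass. Aqp4, the water channel of endfeet, had log2 levels of 7.67, 7.81 and 7.61 in mutants 1, 2 and 3, against 7.58, 7.64 and 7.79 in controls 1, 2 and 3. The groups covered the same range, and the log2 difference was 0.025 (95% interval -0.15 to 0.20, adjusted p = 0.883 from limma). Gja1, the main gap junction protein of astrocytes, had 9.48, 9.81 and 9.66 in mutants 1, 2 and 3, against 9.31, 9.55 and 9.79 in controls 1, 2 and 3. Its groups overlapped too, with a log2 difference of 0.10 (95% interval -0.18 to 0.38, adjusted p = 0.668 from limma). For Gjb6, another gap junction protein, the log2 difference was 0.16 (95% interval -0.040 to 0.36). Mlc1, the partner of Hepacam, had a difference of -0.020 (95% interval -0.35 to 0.31). The sodium bicarbonate cotransporter Slc4a4, which neurons also transcribe, had a difference of -0.046 (95% interval -0.24 to 0.14).

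Of 7 genes of receptors and signalling, 1 rose, Ntsr2. S100b, a calcium-binding protein that astrocytes also secrete, had log2 levels of 7.38, 7.69 and 7.40 in mutants 1, 2 and 3, against 7.505, 7.52 and 7.71 in controls 1, 2 and 3. Its values overlapped, and the log2 difference was -0.087 (95% interval -0.30 to 0.12, adjusted p = 0.623 from limma). Plcd4, a phospholipase C, had a difference of 0.28 (95% interval 0.071 to 0.49, adjusted p = 0.0797 from limma). It passed without mutant 3 (adjusted p = 0.0317 from limma). Tissue factor F3, which starts blood clotting and marks astrocytes in the brain, had a difference of 0.29 (95% interval 0.042 to 0.54, adjusted p = 0.120 from limma), and passed without control 3 (0.40, adjusted p = 0.0255 from limma) and with array weights (0.0275). For the growth factor receptor Fgfr3 the difference was 0.091, for the prosaposin receptor Gpr37l1 0.22 and for Ndrg2, a protein of the NDRG family, -0.012. None of these 3 passed.

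Of 7 genes of metabolism, 0 passed in either direction, and their log2 differences ran from -0.23 to 0.19. Aldh1l1, a folate enzyme used to label astrocytes as a class, had log2 levels of 6.94, 7.12 and 6.94 in mutants 1, 2 and 3, against 6.78, 6.94 and 7.12 in controls 1, 2 and 3. Mutant 2 and control 3 were level with each other at the top, and the log2 difference was 0.051 (95% interval -0.16 to 0.26, adjusted p = 0.790 from limma). Glul, the glutamine synthetase, had a difference of 0.19 (95% interval -0.13 to 0.52), and 0.16 on its other probe set. The glycolytic enzyme Aldoc had 0.081, the acyl-CoA synthetase Acsbg1 0.018, the lipase Pla2g7, which breaks down platelet-activating factor, -0.057, and the amino acid exchanger Slc7a10 -0.087. Ppp1r3c, a regulatory subunit that directs a phosphatase to glycogen, was the least precise of the 32. Its log2 levels ran from 7.51 to 8.11 in mutants and from 7.52 to 8.27 in controls, and the difference was -0.23 (95% interval -0.70 to 0.24, adjusted p = 0.559 from limma). Without control 1 it was -0.46, which passed (adjusted p = 0.0457 from limma).

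Of 2 genes of thyroid hormone handling, 0 passed. Dio2, the deiodinase that makes the active hormone, had log2 levels of 7.32, 7.67 and 7.31 in mutants 1, 2 and 3, against 7.23, 7.09 and 7.22 in controls 1, 2 and 3. Its groups did not overlap, but mutants 1 and 3 lay close to controls 1 and 3. The log2 difference was 0.25 (95% interval 0.028 to 0.47, adjusted p = 0.134 from limma), and it passed with array weights (0.29, adjusted p = 0.0307 from limma). The hormone transporter Slco1c1, which endothelial cells also carry, had a difference of 0.15 (95% interval -0.18 to 0.48).

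Of 8 genes of secreted proteins, 0 passed in either direction. Sparcl1, a matrix protein that promotes the formation of synapses, had log2 levels of 13.04, 13.06 and 13.08 in mutants 1, 2 and 3, against 13.28, 13.18 and 13.20 in controls 1, 2 and 3. It was the only gene of the 32 for which every mutant lay below every control. The log2 difference was -0.16 (standard error 0.053, adjusted p = 0.0813 from limma), and it passed when arrays were centred on their medians (-0.21, adjusted p = 0.0276 from limma), with a trend and robust prior (0.0269) and with array weights (0.0484). Neurons transcribe Sparcl1 as well. The serine protease Htra1 had a difference of 0.19 (95% interval 0.032 to 0.36, adjusted p = 0.113 from limma). Its groups all but touched, with 9.0251 in mutant 1 and 9.0249 in control 3. It passed without control 3 (0.26, adjusted p = 0.0388 from limma) and with array weights (0.0259). The lipid carriers Apoe and Clu had differences of 0.083 and 0.15, and the protease inhibitors Cst3 and Timp4 of -0.16 and -0.015. Cst3, which microglia transcribe too, passed without control 1 (-0.24, adjusted p = 0.0377 from limma). For the phagocytosis bridge Mfge8 the difference was 0.10 (95% interval -0.33 to 0.54) and for the chemokine Cxcl14 0.067.

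**Figure D2:**
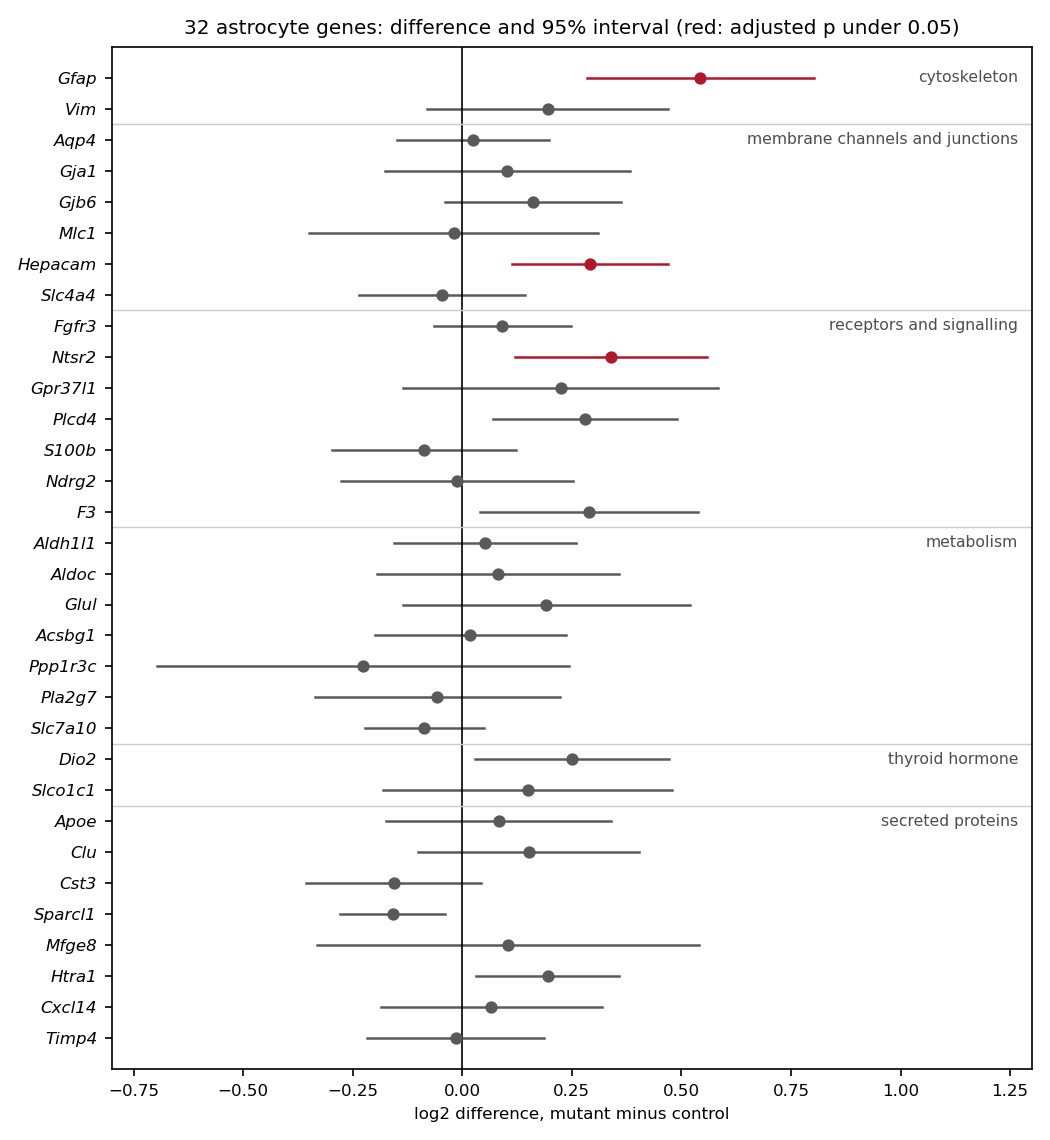
Log2 difference, mutant minus control, of the 32 astrocyte genes on the horizontal axis, with genes ordered by role down the page. Dots are the differences and lines their 95% intervals from limma (n = 3 per group), with adjusted p under 0.05 in red. Gfap stands farthest to the right at 0.54, and the interval of Ppp1r3c is the widest.

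The groups did not overlap for 6 of the 32 genes (18.8%), where they did not for 31.6% of all genes tested. For 5 of them, Gfap, Hepacam, Ntsr2, Dio2 and Htra1, mutants lay above controls, as for 17% of all genes, and for Sparcl1 below, as for 14.6%. The arrays lay farther apart for the astrocyte genes than for the median gene. The genes compared were not matched by level, and 29 of the 32 means reached the limit of 7.06. The standard errors of the 32 ran from 0.053 to 0.21 with a median of 0.10, and the median over all genes was 0.065. The range over the 6 arrays had a median of 0.49 for the 32 genes and of 0.25 for all genes.

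This spread was shared between the astrocyte genes, which went up and down together from array to array. As a deviation of the log2 level from each gene's mean over 6 arrays, the median of the 32 was -0.038, 0.15 and 0.014 in mutants 1, 2 and 3, against -0.25, -0.018 and 0.11 in controls 1, 2 and 3. Mutant 2 and control 3 were thus high and control 1 was low, across the groups. Control 1 was the lowest of the 6 arrays for 23 of 32 genes (17.7% of all genes tested), and mutant 2 or control 3 the highest for 29, mutant 2 for 17 (12.8% of all genes) and control 3 for 12 (20.5%). Within the groups, mutant 2 was the highest mutant for 29 of 32 genes (27.7% of all genes) and control 3 the highest control for 26 (33.2%). Against control 1 alone the median log2 difference of the 32 was 0.31, against control 2 alone 0.069 and against control 3 alone -0.079, comparisons that share the mutant arrays. With control 1 and mutant 2 both left out, which were picked because they stood out for these same genes, the median was -0.084. Leaving out a low control and a high mutant lowers the difference by itself, so the choice set this direction. With both arrays left out, Gfap was higher and Ppp1r3c, Pla2g7 and Cst3 lower, 4 of 32 (12.5%) beside 19.4% of all genes. The 3 lower genes rest on the same choice. Aldh1l1 followed this course closely. Its level relative to the median deviation of the other 31 genes was 0.0076, -0.0067 and -0.057 in mutants 1, 2 and 3, against 0.064, -0.021 and 0.037 in controls 1, 2 and 3.

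**Figure D3:**
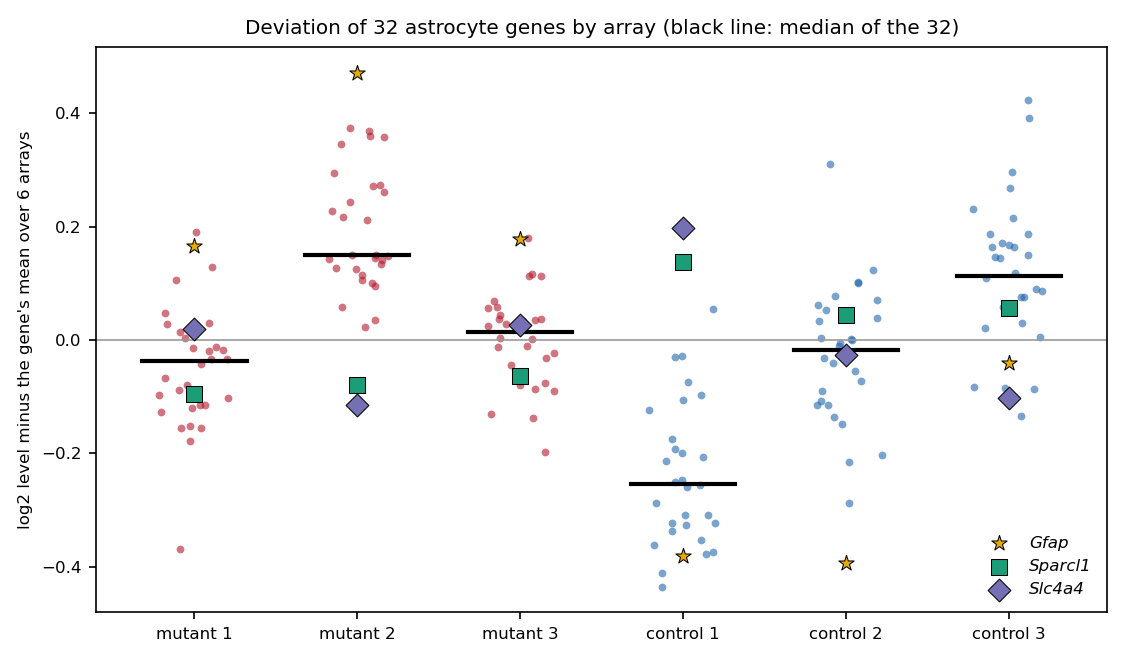
Log2 level minus the gene's mean over 6 arrays on the vertical axis, for the 32 astrocyte genes in each array, with mutants on the left and controls on the right. Points are genes, black lines are medians, and Gfap, Sparcl1 and Slc4a4 have their own symbols. The medians of mutant 2 (0.15) and control 3 (0.11) are high and that of control 1 (-0.25) is low, while Sparcl1 and Slc4a4 are highest in control 1.

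Set against the median deviation of the other 31 genes, the groups were apart for 9 of the 32 and overlapped for 23. Mutants lay above for Gfap, Ntsr2 and F3, and below for S100b, Ndrg2, Acsbg1, Pla2g7, Cst3 and Sparcl1. No matching share among all genes is given for this relative measure, so 9 of 32 cannot be judged high or low. On the log2 levels themselves, mutants and controls were fully separated for 31.6% of genes tested. Gfap, relative to the median deviation of the other 31 genes, stood at 0.21, 0.32 and 0.17 in mutants 1, 2 and 3, against -0.13, -0.38 and -0.16 in controls 1, 2 and 3. These groups did not overlap, and the relative difference was 0.46. Ntsr2 stood at 0.070, 0.22 and 0.11 in mutants, against -0.058, -0.10 and -0.21 in controls, also apart, with a relative difference of 0.26. Hepacam stood at 0.028, 0.12 and 0.18 in mutants, against 0.050, -0.14 and -0.20 in controls, so that control 1 reached into the mutants. F3 was apart with a relative difference of 0.21. Cst3 stood at -0.086, -0.13 and -0.16 in mutants, against 0.16, 0.13 and 0.12 in controls. Its relative difference was -0.26, as was that of Sparcl1, and those of the other 4 lower genes ran from -0.19 for S100b to -0.084 for Acsbg1. Sparcl1 and Slc4a4 were highest of all arrays in control 1, where most of the 32 were lowest. These relative values rest on the choice of genes and were not tested.

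The same arrays were compared for genes of other cells, to show what moved with the astrocyte genes. The median deviation of 17 endothelial and mural genes was -0.10, 0.15 and 0.061 in mutants 1, 2 and 3, against -0.095, -0.0061 and 0.059 in controls 1, 2 and 3. Over 9 genes of oligodendrocyte precursors it was -0.086, 0.15 and -0.077 in mutants, against -0.062, -0.060 and 0.14 in controls. Mutant 2 was thus high for both of these cell types as it was for astrocytes. It was also the highest mutant for 14 of 19 microglial and 11 of 15 oligodendrocyte genes (27.7% of all genes). Control 1 was the lowest control for 15 microglial and 8 oligodendrocyte genes (37.3% of all genes). Control 3 was the highest control for 15 and 5 of them (33.2% of all genes). For 19 microglial genes the medians were -0.16, -0.051 and -0.14 in mutants, against -0.12, 0.15 and 0.32 in controls, and for 15 oligodendrocyte genes -0.125, -0.0025 and -0.069 in mutants, against 0.011, 0.11 and 0.12 in controls. Markers of granule cells ran the other way in the controls, with 0.060, -0.020 and -0.061 in mutants and 0.099, 0.030 and -0.10 in controls (20 genes). This last list holds Bcl11b itself, with 6 higher and 7 lower genes (30% and 35%, beside 9.23% and 5.93% of all genes). Whether the share of glial or vascular tissue in each sample took part in the differences of astrocyte genes was not tested.

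**Figure D4:**
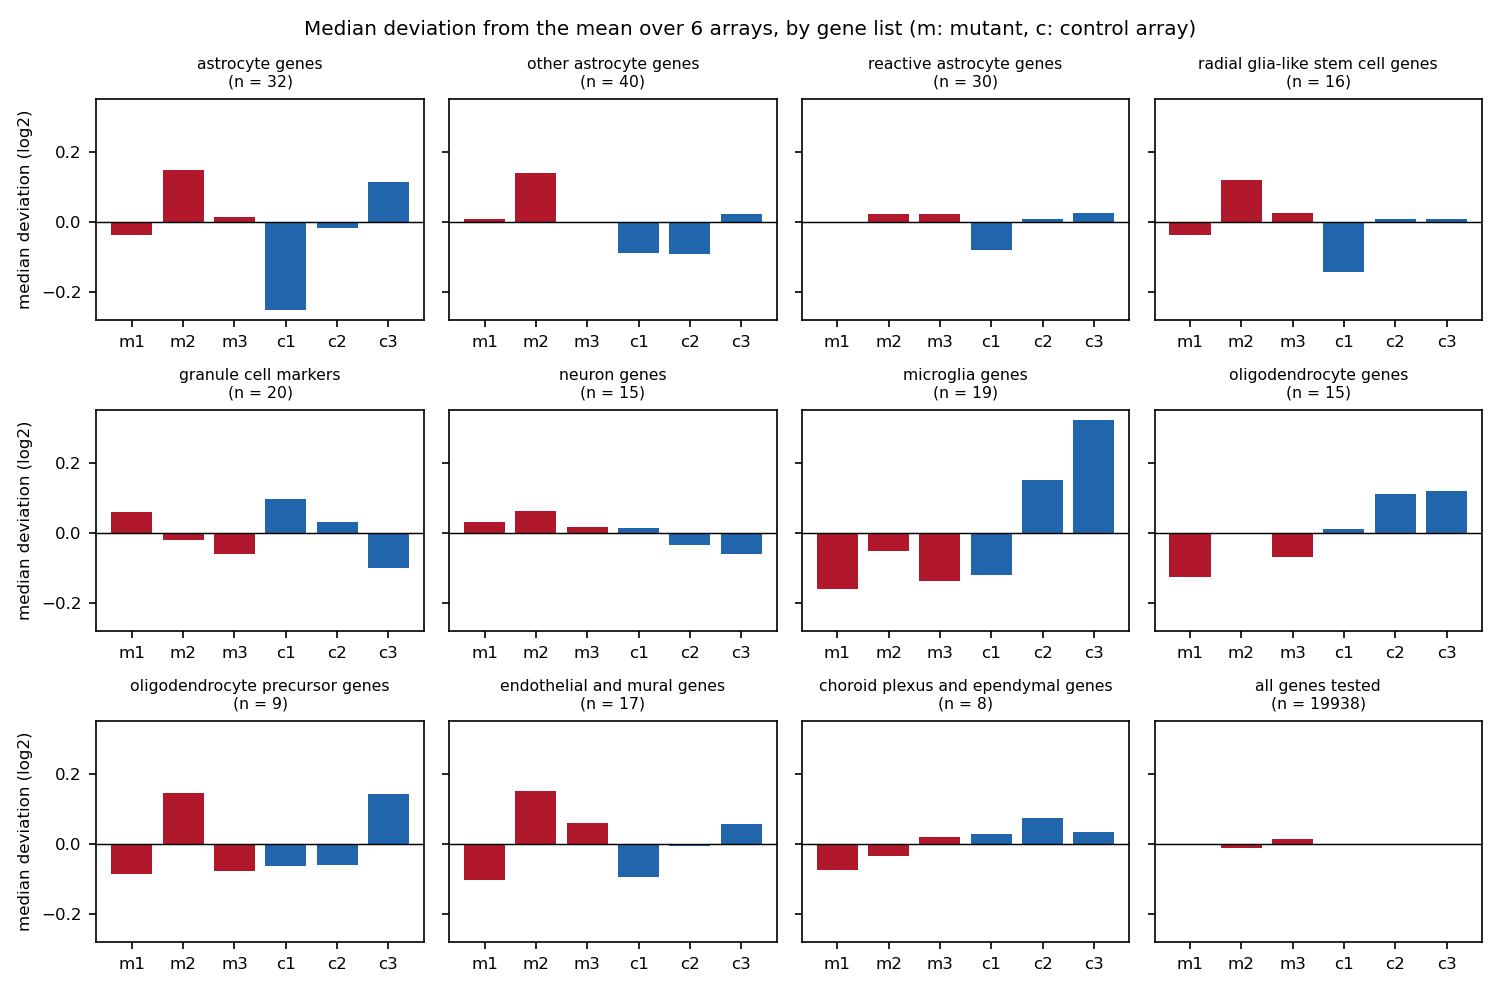
Median deviation from the mean over 6 arrays (log2, vertical axis) for each list of genes, with mutant arrays m1 to m3 on the left in red and control arrays c1 to c3 on the right in blue. Bars start at 0, and n is the number of genes measured. Astrocyte genes are lowest in control 1 (-0.25), while all genes tested stay near 0 in every array.

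Astrocyte genes other than the 32, from a list of 41 of which 40 were measured, gave 8 higher, 2 lower and 30 that did not pass. This is 20% higher and 5% lower, beside 9.23% and 5.93% among all genes. This list and those described below were chosen with earlier results of these data known, which may have shaped their shares. The median log2 difference was 0.10. Rorb, a nuclear receptor, had log2 levels of 8.34, 8.25 and 8.32 in mutants 1, 2 and 3, against 6.79, 6.96 and 7.23 in controls 1, 2 and 3. It rose by 1.31 (standard error 0.10, adjusted p = 7.95e-05 from limma), well beyond the spread of either group. The sodium pump subunit Atp1b2 rose by 0.60 (standard error 0.056, adjusted p = 2.09e-04 from limma) and the metallothionein Mt2 by 0.999 (standard error 0.12, adjusted p = 7.36e-04 from limma). By the methods' test Mt2 did not pass (Benjamini-Hochberg adjusted p = 0.0542). Chosen after their values were seen are Slc1a2, the main glutamate transporter of astrocytes, which rose by 0.32, the GABA transporter Slc6a11 with 0.33, the transcription factor Nfia with 0.31, Mt1 with 0.43 and Fgfr2 with 1.49. Likewise chosen afterwards, Mt3 fell by 0.49 and the proteoglycan Gpc4 by 0.24. Many genes of this list, among them Rorb, Atp1b2, Mt3, Fgfr2 and Nfia, are also transcribed in neurons, and their cell of origin was not measured. Mutant 2 was the highest mutant for 26 of these 40 genes (27.7% of all genes), and control 1 the lowest control for 20 (37.3%).

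Of 30 measured genes of reactive astrocytes, from a list of 36, 4 rose, 2 fell and 24 did not pass, with a median log2 difference of 0.033. This is 13.3% higher and 6.67% lower, near the 9.23% and 5.93% of all genes. The complement inhibitor Serping1 had log2 levels of 9.24, 9.58 and 9.26 in mutants 1, 2 and 3, against 7.77, 7.39 and 7.22 in controls 1, 2 and 3, and rose by 1.90 (standard error 0.14, adjusted p = 6.01e-05 from limma). Its groups lay far apart. The transcription factor Stat3, which acts in reactive astrocytes and in many other cells, rose by 0.75 (adjusted p = 0.00223 from limma) and the interferon-induced GTPase Iigp1 by 0.50 (adjusted p = 0.00441 from limma). Neither Stat3 nor Iigp1 passed by the methods' test (Benjamini-Hochberg adjusted p = 0.0771 and 0.0815). The mean levels of Iigp1, 6.16 in mutants and 5.67 in controls, were below the array medians. Chosen after their values were seen are Aspg, higher by 0.22, and the lower genes Amigo2 (-0.68) and Fkbp5 (-0.52). Among the most used markers of reactivity, Lcn2 had a log2 difference of -0.046, Serpina3n of -0.17 and Cd44 of 0.066, none of which passed. These 3 were also chosen after their values were seen.

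Of 16 measured genes of radial glia-like stem cells, 3 rose, 0 fell and 13 did not pass, with a median log2 difference of 0.039. This is 18.75% higher and 0% lower, beside 9.23% and 5.93% of all genes. The 3 were Rbpj, the DNA-binding partner of Notch, with 0.70 (adjusted p = 1.07e-04 from limma), the receptor Notch2 with 0.62 (adjusted p = 0.00128 from limma) and Sox11, a transcription factor of immature neurons, with 0.46 (adjusted p = 0.00413 from limma). The values of Sox11 were 9.83, 9.89 and 9.66 in mutants 1, 2 and 3, against 9.42, 9.24 and 9.35 in controls 1, 2 and 3, without overlap. Rbpj was higher by only 0.35 with the mean of all its probe sets (adjusted p = 0.00332 from limma). By the methods' test, Notch2 and Sox11 did not pass (Benjamini-Hochberg adjusted p = 0.0531 and 0.0726). Sox11 counts toward the share of this list although it is a factor of immature neurons. The cell of origin of the 3 genes was not measured.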

How the data were processed

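The deposited log2 expression values, 1 per probe set and array, were made by the authors, whose processing notes name RMA and Affymetrix Expression Console. No source used here gives versions, settings or a genome build. Of 35556 probe sets, 21789 are paired with 1 gene, 1621 with several and 12146 are not listed. Probe sets with 1 gene were kept, with the highest mean over 6 arrays for each gene, which gave 19938 genes, and no filter on level was applied.

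Mutants were tested against controls over all genes in R 4.3.3 with the package limma 3.58.1, two-sided, by lmFit followed by eBayes and without covariates, after a check of the script on simulated data. The astrocyte genes and the other lists were chosen with earlier results of these data known. Named were all 32 genes and, of the other lists described by gene, up to 3 with the smallest p. Also named were defining markers of cell types and genes marked as chosen after their values were seen. Alternatives were other tests, priors and array weights, a filter on dim genes, other probe set rules and normalizations, a replicate block and leaving out each array. Lists were described by counts and medians, without a test. The methods' test is the unpaired two-tailed test named in the study. Sequences come from RefSeq (GRCm38.p6), matched by symbol.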

Additional observations from a re-analysis of the deposited data

How the results depend on the processing

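The count of 3 changed astrocyte genes was 0 by the methods' test once adjusted (Benjamini-Hochberg), beside 5.72% of all genes. It was 7 (21.9%) with array weights, beside 27.7%, and 1 (3.12%) with renewed quantile normalization, beside 15.9%. When an array was left out it was 0 to 4. It was 0 without control 2, beside 9.69% of all genes, and 1 (3.12%) without mutant 2, beside 9.8%. For all genes the count of 3023 was 1141 with the methods' test after adjustment, 4545 with it unadjusted, 5527 with array weights, and 1886 to 4487 when an array was left out (1886, 1954 and 1949 without mutants 1, 2 and 3, and 1931 without control 2). Of the changed genes 60.9% were higher, and 44.2% when arrays were centred on their medians. With the methods' test after adjustment, 3 of 40 other astrocyte genes, 2 of 30 reactive genes and 1 of 16 stem cell genes passed. Among all genes 5.72% passed by that test. The median of the 32 was -0.0027 to 0.19 when an array was left out. Chosen after seeing the data, each control alone gave medians of 0.314, 0.069 and -0.0789, and leaving out control 1 and mutant 2 gave -0.0843. That last choice lowers the median by itself. Small differences changed sign: Aldoc was -0.0089 and Acsbg1 -0.0076 with array weights, Aqp4 -0.025 and Acsbg1 -0.032 with renewed quantile normalization, and Aqp4 -0.023 and Acsbg1 -0.030 with centring. When an array was left out, differences that changed sign ranged from -0.19 to 0.12 for Mlc1, -0.14 to 0.068 for Ndrg2, -0.11 to 0.043 for Timp4, -0.032 to 0.086 for Aqp4, -0.032 to 0.14 for Aldh1l1, -0.077 to 0.11 for Acsbg1, -0.058 to 0.34 for Mfge8, -0.015 to 0.22 for Gja1, -0.11 to 0.041 for Slc4a4, -0.067 to 0.17 for Aldoc, -0.058 to 0.19 for Apoe, -0.060 to 0.19 for Cxcl14, -0.20 to 0.062 for Pla2g7 and -0.25 to 0.022 for the precursor gene Lhfpl3. The cause of these shifts was not tested. Same-numbered arrays deviated with correlations of 0.16, -0.033 and 0.12, with the best match to the same number for 4 of 6. Whether they share more than a number is not stated and cannot be told from these values. The replicate block gave 3176 changed genes (15.9%) and 4 astrocyte genes (12.5%), with Plcd4 added (adjusted p = 0.0460 from limma). Arrays without a detection measure limit what can be said of dim genes.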

Other observations

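Genes of blood vessels, which astrocyte endfeet contact, gave 2 higher, 0 lower and 15 that did not pass, of 17 measured. This is 11.8% higher and 0% lower, beside 9.23% and 5.93% of all genes. Pdgfrb, a growth factor receptor of pericytes, had log2 levels of 7.44, 7.45 and 7.28 in mutants 1, 2 and 3, against 6.98, 7.03 and 6.95 in controls 1, 2 and 3, which is 0.40 higher on the log2 scale (limma, adjusted p = 0.00324). The groups were clearly apart. Flt1, a receptor for vascular growth factors on endothelial cells, had 7.66, 8.09 and 7.84 in mutants 1, 2 and 3, against 7.24, 7.58 and 7.44 in controls 1, 2 and 3, so that it was higher by 0.44 on the log2 scale (limma, adjusted p = 0.0354). With centring on array medians its adjusted p was 0.0528. It did not pass without mutant 2 (adjusted p = 0.112 from limma), mutant 3 (0.0999) or control 3 (0.0692). Kdr, another such receptor, had 5.72, 5.90 and 5.88 in mutants 1, 2 and 3, against 6.004, 6.09 and 5.99 in controls 1, 2 and 3, below the array medians. Every mutant lay below every control, and the log2 difference of -0.19 did not pass (adjusted p = 0.0861 from limma), but did with array weights (0.0135) and with centring (0.0375). The endothelial junction gene Cldn5, chosen as a defining marker, had a log2 difference of -0.023 (adjusted p = 0.930 from limma). Kl, a gene of the choroid plexus and of some neurons, fell by 0.58 on the log2 scale (adjusted p = 4.92e-04 from limma). It was the only gene of 8 of that list to pass, which is 12.5% lower, beside 5.93% of all genes.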
